A study of Mus musculus with 4 samples.

Results

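Transcript usage in the brain was compared between 2 reciprocal mouse hybrids. The hybrids come from crosses of the inbred strain C57BL/6 (B6) with the wild-derived strain CAST/EiJ (CAST), and are labelled F1i (C57BL/6 x CAST/EiJ) and F1r (CAST/EiJ x C57BL/6). The labels do not say which strain was the mother. All 4 groups (B6, CAST, F1i and F1r) are wild type and untreated as far as the labels say, with neither age nor sex given. Each group is 1 RNA library from the pooled left hemispheres of 5 mice, although the series design speaks of whole brain. With 1 library per group there are no replicates, so no value below has an error and no difference was tested.

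A gene entered the comparison when 2 or more of its transcripts were at least 200 bases long and these summed to at least 5 FPKM (a fragment count corrected for the length of the transcript and the size of the library) in both hybrid libraries. This held for 7359 of 51905 gene identifiers, 7246 of them protein-coding, with 50097 of 128603 transcripts. For each transcript, its share is the percentage it makes of the summed FPKM of its gene, and a gene is called shifted where at least 1 share differed by 20 percentage points or more between F1i and F1r. The shifted genes were thus chosen by the F1i and F1r shares, which are given as a description. The shares in the B6 and CAST libraries took no part in that choice.

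Most mammalian genes give several mature transcripts. Alternative promoters change the first exon, alternative splicing includes or skips exons or moves their ends, and alternative polyadenylation changes the last exon. Brain is among the tissues richest in such variants, including very short exons used mostly by neurons. In a hybrid, autosomal genes can be transcribed from a B6 and a CAST allele in both cross directions. A male has a single X chromosome, which comes from its mother, as does its mitochondrial DNA.

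The cell makeup of the hybrid libraries was checked with marker genes. All defining markers of neurons, astrocytes, oligodendrocytes and microglia, 5 of 5 in each case, reached at least 1 FPKM in both hybrids. The summed level of the neuronal markers was 1078 FPKM in F1i and 1130 in F1r, that of the oligodendrocyte markers 1595 and 1454, and that of the 2 blood markers 291 and 186. Only 1 of 3 olfactory mucosa markers and 1 of 3 markers of meninges and smooth muscle reached 1 FPKM in both. Xist, the RNA of the inactive X, was at 0.00211 FPKM or lower in all 4 libraries, and Y-linked Ddx3y was at 16.1 in F1i and 17.6 in F1r. The mitochondrial mt-Nd1 stood at 1853 FPKM in B6 and 563 in CAST, against 455 in F1i and 1914 in F1r, so that F1i resembled CAST and F1r resembled B6. In bulk tissue, fewer cells of a type and less RNA per cell cannot be told apart, and the part of cell makeup in the share differences was not tested.

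Several of the clearest differences lay in short coding blocks, which are whole exons or extensions of a longer exon. Their sequences are shown here because the use of the block is compared below. Elavl4 is shown as a contrast, since the use of its block differed little. Each pair below gives the RNA-sense DNA strand 5′ to 3′ from the GENCODE M21 transcripts (GRCm38), with the block in capitals and 18 bases of coding sequence on each side in lower case. The first line of a pair is the transcript with the block and the second is the transcript without it.
Anxa6-202: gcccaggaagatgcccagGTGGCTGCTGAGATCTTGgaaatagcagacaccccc
Anxa6-201: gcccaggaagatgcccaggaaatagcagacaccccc
Src-202: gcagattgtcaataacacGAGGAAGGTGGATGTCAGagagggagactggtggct
Src-201: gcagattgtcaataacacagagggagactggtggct
Sptan1-203: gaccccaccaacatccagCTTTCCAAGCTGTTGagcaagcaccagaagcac
Sptan1-202: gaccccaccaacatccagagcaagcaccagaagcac
Gfra1-201: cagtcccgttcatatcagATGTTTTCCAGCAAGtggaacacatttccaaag
Gfra1-203: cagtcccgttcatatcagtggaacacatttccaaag
Nrp2-203: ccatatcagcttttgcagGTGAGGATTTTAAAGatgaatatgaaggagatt
Nrp2-204: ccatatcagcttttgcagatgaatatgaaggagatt
Elavl4-202: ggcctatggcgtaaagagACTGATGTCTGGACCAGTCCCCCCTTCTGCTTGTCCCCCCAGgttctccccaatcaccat
Elavl4-204: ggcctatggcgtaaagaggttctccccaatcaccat
The blocks of Anxa6 (chr11:54987051-54987068, minus strand), Src (chr2:157458843-157458860, plus strand), Sptan1 (chr2:30014158-30014172, plus strand) and Gfra1 (chr19:58392573-58392587, minus strand) are whole exons. Those of Nrp2 (chr1:62786302-62786316, plus strand) and Elavl4 (chr4:110206660-110206701, minus strand) extend a longer exon. All 6 blocks keep the reading frame, with lengths of 18, 18, 15, 15, 15 and 42 bases in the order of the lines above.

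For each block, its use was taken as the percentage of FPKM from transcripts that contain it, among all transcripts of the gene that span the position. Anxa6, a calcium-dependent phospholipid-binding annexin, had the largest contrast. Its 18-base exon made 1.82% in B6 and 66.5% in CAST, against 67.0% in F1i, and was listed at 0 in F1r. F1i was thus level with CAST and F1r close to B6, while the summed FPKM of the gene was 25.7 in F1i and 21.3 in F1r. Src is a tyrosine kinase for which a neuronal form with a short extra exon in the SH3 domain is well known. Use of its 18-base exon was 57.1% in B6 and 14.99% in CAST, against 10.1% in F1i and 71.7% in F1r, again with F1r on the side of B6 and F1i on the side of CAST.

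Sptan1, which encodes the non-erythroid alpha spectrin of the membrane skeleton, is the best covered of these genes, with about 31321 fragments in F1i and 29749 in F1r. Its 15-base exon was used in 97.9% in B6 and 56.3% in CAST, against 62.8% in F1i and 97.6% in F1r. The hybrids thus differed by nearly as much as the parents, in the same direction.

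The receptors Gfra1 and Nrp2 showed the reverse arrangement. Gfra1 binds glial cell line-derived neurotrophic factor, and its 15-base exon made 43.1% in B6 and 100% in CAST, against 39.3% in F1i and 77.9% in F1r. Nrp2 is a co-receptor of semaphorins and vascular endothelial growth factors, and the 15-base extension made 2.14% in B6 and 23.9% in CAST, against 4.89% in F1i and 43.5% in F1r. In both genes F1i was near B6 and F1r had moved toward, or in Nrp2 past, CAST. Elavl4, the neuronal RNA-binding protein HuD, shows how a shift between 2 transcripts can leave the use of a block nearly as it was. Elavl4-204, which lacks the 42-base block, made 12.4% of the gene in F1i and 33.6% in F1r. Over the 2 transcripts that carry the block and the 6 that lack it, the block was used in 57.9% in F1i and 49.5% in F1r.

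**Figure D1:**
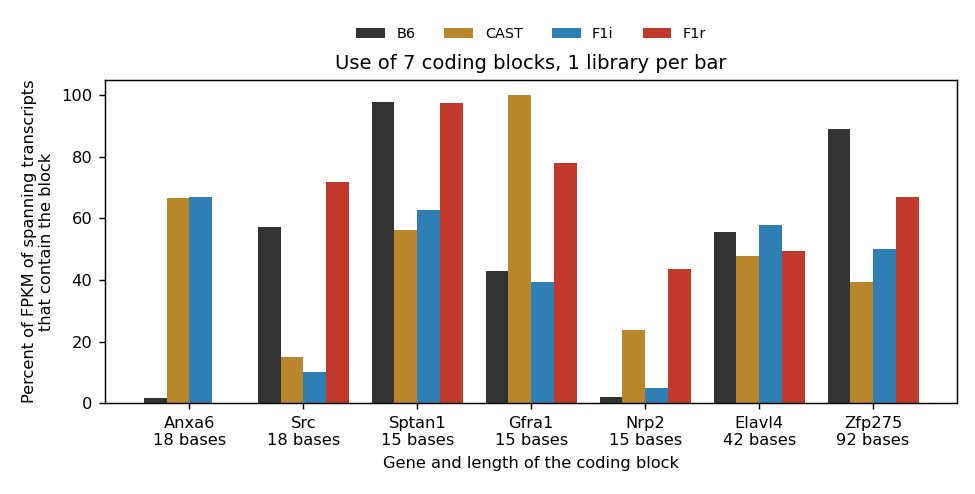
Percent of FPKM from transcripts containing a coding block, among transcripts of the gene that span it, for 7 genes (horizontal axis, with block length) in the B6, CAST, F1i and F1r libraries (1 bar each, no error). In Anxa6, Src, Sptan1 and Zfp275 the F1r bar is on the side of B6 and the F1i bar on the side of CAST, while Gfra1 and Nrp2 show the reverse and Elavl4 differs little.

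Seen over all genes, transcript usage in the reciprocal hybrids was mostly close. The largest share difference of a gene had a median of 4.58 points with quartiles of 2.14 and 8.16, and 82.6% of genes stayed under 10 points. A difference of 20 points or more was found in 214 genes, 2.91% of those compared. In 49 genes it reached 30 points and in 9 genes 50 points. The leading transcript was another one in 441 genes (5.99%), and in 65 of these, 0.883% of all, a share also differed by 20 points or more. Among the 303 shifted transcripts, 131 were higher in F1r (0.261% of all transcripts compared) and 172 lower (0.343%), and 70 were under 1% in 1 of the 2 hybrids.

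Gene level differed little between the hybrids in most shifted genes, though slightly less often so than over all genes compared. Of the 214 shifted genes, 207 (96.7%) had summed FPKM within 1.5-fold between the hybrids, against 99.6% of all genes compared, and none differed 2-fold. Shifted genes also lay low. With mean levels of 5 to 10 FPKM, 122 of 2070 genes (5.89%) were shifted, against 67 of 2401 (2.79%) from 10 to 20 FPKM and 19 of 1933 (0.983%) from 20 to 50 FPKM. Only 2 of 565 genes from 50 to 100 FPKM and 4 of 390 at 100 FPKM or more passed the threshold. The deposited tables give no read counts, but the lowest values of long transcripts step by the worth of 1 fragment, about 29.2 FPKM times bases in F1i and 32.2 in F1r. By that measure the genes compared had a median of about 1491 fragments in F1i and 1392 in F1r, and the shifted genes 799 and 714, with the lowest at 91.2 and 72.3. The part of low fragment numbers in the count of shifted genes was not tested.

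**Figure D2:**
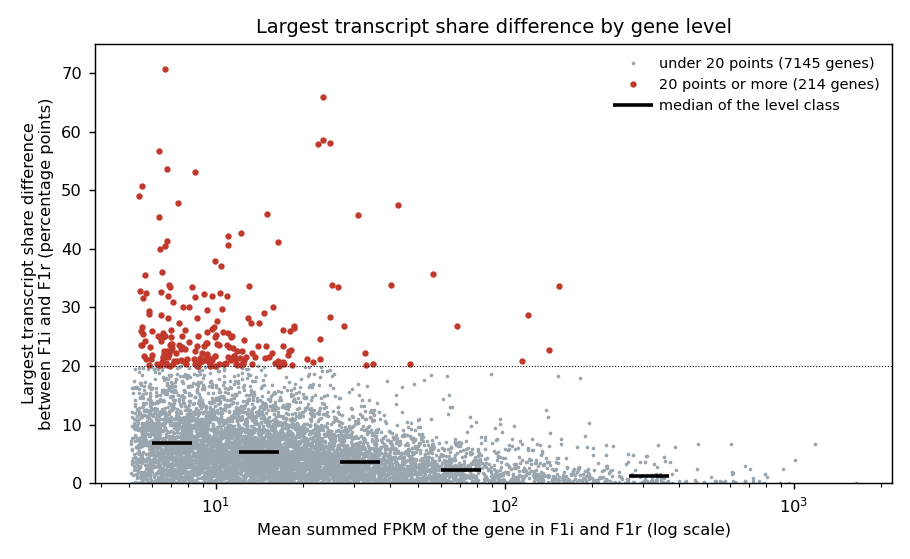
Largest transcript share difference between F1i and F1r in percentage points (vertical) against the mean summed FPKM of the gene in the 2 hybrid libraries (horizontal, log scale), 1 point per gene, with black bars for the median of 5 level classes. The 214 genes at or above 20 points are mostly at low level, and the class medians go from 6.81 points at 5 to 10 FPKM to 1.21 points at 100 FPKM or more.

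The threshold cut through a continuous range. B3gnt2 (20.01 points), Prr14l (20.01) and Rnf111 (20.03) lay just above it, and Fggy (19.95), Ndufaf6 (19.96) and Pllp (19.98) just below. When shares were taken of FPKM times transcript length, which weights by fragments, the same transcript differed by -4.96 points in B3gnt2 and -0.91 in Prr14l (F1r minus F1i).

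The largest differences are given first. Ly6a, the glycolipid-anchored surface antigen known as Sca-1, came first with 70.8 points. Ly6a-204 made 65.4% of the gene in B6 and 79.8% in CAST, against 2.97% in F1i and 73.8% in F1r, so F1i stood apart from the 3 other libraries, at 7.05 FPKM for the gene in F1i, 6.28 in F1r and 2.04 in CAST. Slc25a51, the mitochondrial carrier of NAD, had transcript Slc25a51-202 at 37.5% in B6 and 0.37% in CAST, against 52.5% in F1i and 0.21% in F1r, and its 2 exchanging transcripts differ by only 5 exonic bases. Pcgf5, a subunit of Polycomb repressive complexes, had Pcgf5-201, a transcript with an alternative first exon, at 14.7% in B6 and 48.3% in CAST, against 56.7% in F1i and 0.004% in F1r. Chchd3, a subunit of the mitochondrial cristae-organising complex, had Chchd3-201 at 97.7% in B6 and 60.4% in CAST, against 52.9% in F1i and 96.4% in F1r. Chchd3-205, with another last exon, was listed at 0 in F1r and made 45.8% in F1i.

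Among enzymes and regulators, Usp1, a deubiquitinase of DNA repair, had Usp1-202 at 51.0% in B6 and 55.7% in CAST, against 74.6% in F1i and 20.9% in F1r. Phlpp2, a phosphatase acting on Akt, had Phlpp2-203 at 51.6%, 38.7%, 85.1% and 39.7% in the same order. Pip5k1a, which makes the membrane lipid phosphatidylinositol bisphosphate, had Pip5k1a-205 at 41.4%, 35.3%, 74.2% and 43.9%. In the latter pair the F1i library was the one apart from the other 3. Rps6ka4, a kinase of the stress response, had Rps6ka4-201 at 56.4% in B6 and 59.3% in CAST, against 88.6% in F1i and 40.7% in F1r. Cntfr, the receptor subunit for ciliary neurotrophic factor, had Cntfr-204 at 30.5%, 22.7%, 37.5% and 0.65%, with F1r apart. Ing1, a reader of histone methylation, had Ing1-204 at 0.02%, 0.01%, 41.3% and 0.65%, so a transcript near 0 in 3 libraries took a large share in F1i.

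Shifts in well expressed genes rest on more fragments. Rps27a, a ribosomal protein fused to ubiquitin, stood at 168.6 FPKM in F1i and 140.0 in F1r, and Rps27a-202 made 21.9% in B6 and 16.6% in CAST, against 60.0% in F1i and 26.3% in F1r. Nsmf, which carries signals from NMDA receptors to the nucleus, stood at 114.6 and 125.5 FPKM. Nsmf-201 made 36.1% in B6 and 36.1% in CAST, against 32.2% in F1i and 3.42% in F1r, where F1r alone was low. Bag1, a co-chaperone of Hsp70, had Bag1-201 at 16.0%, 22.9%, 48.0% and 81.4%, with both hybrids above both parents. Map6, a microtubule-stabilising protein, had Map6-205 at 39.4%, 4.41%, 71.2% and 37.7%, but its exchanging transcripts differ by 1 exonic base, and how many fragments tell them apart is not known. Rpl29 could not be placed between the parents, since the whole gene was at 0.647 FPKM in CAST against 42.9 in F1i and 42.5 in F1r, and 44.9% of its sequence words of 31 bases occur in other genes.

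Structure was compared between the transcript whose share was highest in F1r relative to F1i and the one whose share was lowest, for the 212 shifted genes whose transcripts were in the annotation. The same coding sequence was shared by 53 of 212 pairs, or 25%, against 11.2% over all 7311 genes with annotation. A different coding sequence was found in 101 pairs (47.6%), and at least 1 non-coding transcript in 58 (27.4%), against 40.7% and 48.0% over all genes. Another first exon separated 101 pairs (47.6%, against 51.5% of all) and another last exon 54 (25.5%, against 48.5%). The shifted pairs thus differed from the typical pair mainly in fewer changes at the 3′ end and fewer non-coding partners. They were also more alike, with a median of 517.5 exonic bases between the pair against 1639 over all genes, and 18 pairs (8.49%, against 3.78%) within 50 bases. Of the 303 shifted transcripts, 260 (85.8%) were annotated as protein-coding against 51.4% of all transcripts compared, while retained introns made 13 (4.29%) against 24.3%. A transcript must hold a share of at least 20% in 1 hybrid to be shifted, which favours leading transcripts by construction.

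The summed share of transcript types hardly differed between the hybrids. Protein-coding transcripts made 88.4% of FPKM in F1i and 87.6% in F1r, retained introns 4.81% and 5.37%, and targets of nonsense-mediated decay 1.64% and 1.65%.

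Psen2, presenilin 2 of the gamma-secretase complex that cleaves the amyloid precursor protein, shows an exchange of first exons without a change of the coding sequence. Its transcripts Psen2-201 and Psen2-205 have the same coding sequence and other first exons. The windows around both start sites, from 250 bases before to 50 after, are shown because the exchange lies between them. They are RefSeq sequences (GRCm38.p6, minus strand) at chr1:180245901-180246200 and chr1:180256251-180256550, with GC boxes (GGGCGG, either strand) in capitals.
Psen2-201: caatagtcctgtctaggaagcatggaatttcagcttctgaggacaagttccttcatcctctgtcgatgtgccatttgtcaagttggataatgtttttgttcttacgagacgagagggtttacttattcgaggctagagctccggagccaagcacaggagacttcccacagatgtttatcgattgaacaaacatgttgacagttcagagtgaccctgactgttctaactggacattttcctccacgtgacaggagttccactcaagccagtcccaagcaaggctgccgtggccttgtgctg
Psen2-205: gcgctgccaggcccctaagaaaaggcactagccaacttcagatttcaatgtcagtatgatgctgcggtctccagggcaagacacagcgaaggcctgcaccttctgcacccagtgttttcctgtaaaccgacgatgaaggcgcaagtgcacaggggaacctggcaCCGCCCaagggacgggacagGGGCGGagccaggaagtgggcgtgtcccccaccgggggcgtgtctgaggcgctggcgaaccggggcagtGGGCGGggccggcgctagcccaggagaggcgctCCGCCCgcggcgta
The window of Psen2-205 holds 23 CpG and 4 GC boxes, and that of Psen2-201 holds 8 CpG and none, where the median over 32851 promoters is 7 CpG and 35.7% hold a GC box. Neither holds the letters CCAAT or TATAAA on either strand, which 37.4% and 13.6% of promoters hold. Psen2-205 made 71.4% of the gene in B6 and 0.18% in CAST, against 72.4% in F1i and 21.7% in F1r. Psen2-201 made 11.7%, 72.6%, 16.0% and 58.6%. F1i was therefore level with B6 and F1r lay toward CAST, at 5.65 and 5.44 FPKM for the gene.

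Shifted genes made up a larger percentage of X-linked than of autosomal genes, a difference that 1 library per group leaves untested. Of 250 X-linked genes 15 were shifted (6%), against 199 of 7104 autosomal genes (2.8%). Single autosomes ranged from 0.976% to 4.49%. The median largest difference was 5.73 points on the X and 4.56 on autosomes, with similar median levels of 16.5 and 15.7 FPKM. The parental libraries, which the choice did not use, give each shifted transcript a direction to compare with. On the X, 23 of 24 shifted transcripts (95.8%) differed in the same direction between B6 and CAST, and on autosomes 114 of 279 (40.9%). Transcripts of a gene share its total and are not independent. With 1 transcript per gene, the one with the largest difference, 14 of 15 X-linked genes and 79 of 199 autosomal genes (39.7%) had the direction of B6 minus CAST. At a threshold of 10 points this held for 47 of 68 X-linked genes (69.1%) and 533 of 1214 autosomal genes (43.9%), and single autosomes ranged from 34.7% to 60%.

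**Figure D3:**
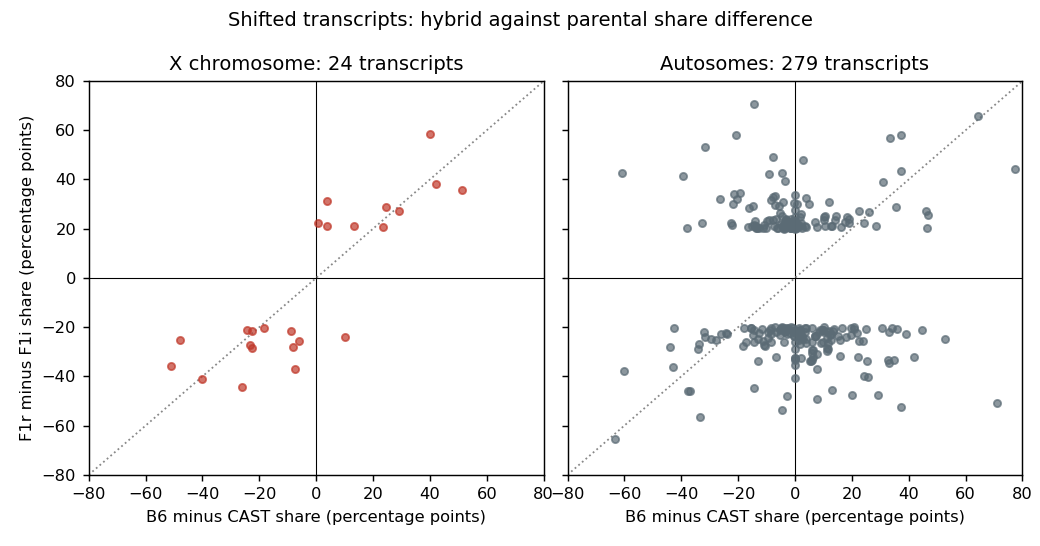
F1r minus F1i share against B6 minus CAST share, both in percentage points, for each shifted transcript on the X chromosome (left, 24 transcripts) and on autosomes (right, 279 transcripts), with the dotted line marking equal differences. On the X, 23 of 24 points lie in the 2 quadrants of equal sign, and on autosomes 114 of 279.

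The size of the X-linked differences was also close to the parental one in part of the genes. Pdzd11, a PDZ-domain protein, had Pdzd11-202 at 51.5% in B6 and 22.6% in CAST, against 23.5% in F1i and 50.7% in F1r. Pbdc1 had Pbdc1-201 at 60.1%, 82.6%, 88.8% and 60.2%. Ctps2, a CTP synthase, had Ctps2-202 at 7.93%, 30.4%, 30.7% and 9.19%. In these 3 genes the F1r share was close to that of B6 and the F1i share close to that of CAST. Apoo, an apolipoprotein-related subunit of the mitochondrial cristae complex, had Apoo-202 at 42.2% in B6 and 0.03% in CAST, and was listed at 0 in F1i and made 38.2% in F1r. The related genes Bex3 and Tceal9 encode small adaptor proteins of the brain. Bex3, at 109.8 FPKM in F1i and 119.8 in F1r, had Bex3-203 at 27.4%, 3.97%, 1.89% and 22.7%.

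Tceal9, at 56.8 FPKM in F1i and 56.4 in F1r, exchanged 2 first exons with the same coding sequence. The sequence around the start of Tceal9-201 (RefSeq, GRCm38.p6, plus strand, chrX:136244830-136245129) is shown because this start accounts for nearly all of the gene in 2 of the libraries, with a CCAAT box and a GC box in capitals.
Tceal9-201: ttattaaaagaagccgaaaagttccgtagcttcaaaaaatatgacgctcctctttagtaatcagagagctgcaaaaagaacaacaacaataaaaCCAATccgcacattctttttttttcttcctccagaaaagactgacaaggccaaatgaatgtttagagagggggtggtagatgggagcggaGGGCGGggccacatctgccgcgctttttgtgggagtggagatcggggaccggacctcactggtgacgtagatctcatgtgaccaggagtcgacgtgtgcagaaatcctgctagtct
This window holds 13 CpG. Tceal9-201 made 99.99% of the gene in B6 and 48.9% in CAST, against 64.3% in F1i and 99.998% in F1r, and Tceal9-202 the rest. Tceal9-202 was thus at 20.3 FPKM in F1i and 29.9 in CAST, and under 0.01 FPKM in both B6 and F1r. Armcx1, a protein of the mitochondrial outer membrane that promotes mitochondrial transport in axons, exchanged 3 transcripts with the same coding sequence. Armcx1-205 made 41.9% in B6 and 1.83% in CAST, against 1.07% in F1i and 59.7% in F1r. Armcx1-204 made 4.09%, 30.1%, 47.0% and 2.78%.

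Zfp275, a zinc-finger protein, differed by a 92-base exon at chrX:73351269-73351360, which was used in 89.0% in B6 and 39.2% in CAST, against 50.1% in F1i and 66.9% in F1r. Here F1r was intermediate between the parents, unlike in the genes above. In a further 6 X-linked genes the parents were closer than the hybrids. Ikbkg, the regulatory subunit NEMO of the NF-kappa-B kinase, had Ikbkg-217 at 15.03%, 22.5%, 37.1% and 0.00% in the order B6, CAST, F1i, F1r. Yipf6, a Golgi membrane protein, had Yipf6-202 at 16.9%, 25.1%, 28.3% and 0.01%. Phka1, a subunit of phosphorylase kinase, had Phka1-202 at 69.5%, 75.5%, 89.7% and 64.1%. Slc35a2, the Golgi carrier of UDP-galactose, had Slc35a2-202 at 22.6%, 21.9%, 9.90% and 32.4%, where the parental libraries hardly differed. Zfx, a transcription factor with a Y-linked counterpart, had Zfx-201 at 9.80%, 6.09%, 0 and 21.1%, and Slc25a53-211 stood at 35.5%, 44.5%, 49.7% and 28.1%. In these 6 genes the hybrids went past both parents, which the count of directions above includes. With shares of FPKM times length, the transcript with the largest difference fell under 20 points in 6 of the X-linked genes named here. It was at -6.85 points in Yipf6, -15.7 in Ctps2, 17.1 in Pbdc1, -17.5 in Phka1, -18.2 in Slc25a53 and 18.4 in Bex3.

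**Figure D4:**
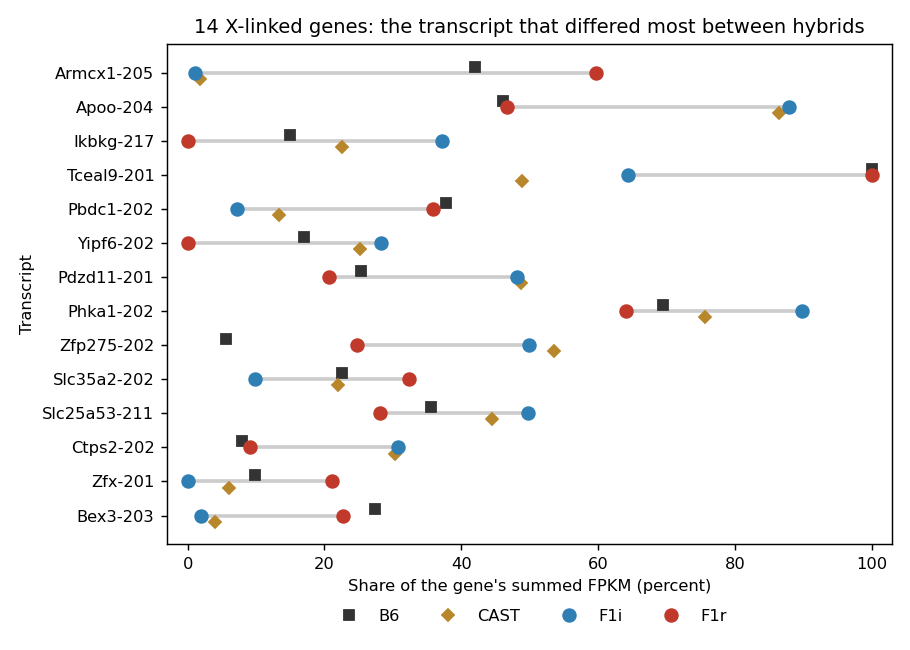
Share of the gene's summed FPKM (horizontal, percent) in B6, CAST, F1i and F1r for the transcript with the largest hybrid difference in each of the 14 shifted X-linked genes with the direction of B6 minus CAST, 1 library per symbol, with a grey bar joining F1i and F1r. In Pdzd11, Pbdc1, Ctps2 and Apoo the F1r symbol lies beside B6 and the F1i symbol beside CAST.

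A choice of transcripts by the parental shares alone gives the same comparison without the selection on F1i and F1r shares. The hybrids entered this choice only through the level minimum. With at least 5 FPKM in all 4 libraries, 564 of 7096 genes (7.95%) had a transcript 20 points or more apart between B6 and CAST. These were 19 of 246 X-linked genes (7.72%) and 545 of 6845 autosomal genes (7.96%). With the B6 share set to 0 and the CAST share set to 1, the 33 such X-linked transcripts had a median position of 0.79 in F1i and 0.15 in F1r, with quartiles of 0.47 to 1.02 and 0.01 to 0.40. The 839 autosomal transcripts had medians of 0.39 in F1i and 0.41 in F1r. Between the hybrids, 14 of the 33 X-linked transcripts differed by 20 points or more with F1r toward B6 and 0 with F1r toward CAST. On autosomes these numbers were 26 and 31 of 839. Counting differences of any size, F1r was toward B6 relative to F1i in 25 of the 33 X-linked transcripts and 385 of the 839 autosomal ones. X-linked transcripts that went the other way include Hdac6-202 (-12.8 points, F1r minus F1i) and Tfe3-201 (10.5). Over all transcripts with a share of 10% or more in at least 1 library, Pearson's r between F1r minus F1i and B6 minus CAST was 0.46 across 571 X-linked transcripts (Spearman's coefficient 0.22) and -0.05 across 15789 autosomal transcripts (Spearman's coefficient -0.09). Each of the 2 differences is between 1 pair of libraries, so all transcripts share those libraries, and transcripts of a gene are tied to one another.

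Genes 20 points apart were also counted in each pair of libraries. On the X, 18 of 246 genes differed between B6 and F1i, but 6 between B6 and F1r, 3 between CAST and F1i, and 13 between CAST and F1r. The median largest difference on the X did not have this order for F1i, at 4.49 points from B6 and 4.50 from CAST, and for F1r it was 4.75 from B6 and 5.44 from CAST. On autosomes each hybrid was nearer to B6 than to CAST, with 197 genes between B6 and F1i, 226 between B6 and F1r, 348 between CAST and F1i and 320 between CAST and F1r. These pairs share libraries and are not independent. The build named by the submitters is mm9 and the deposited coordinates are those of GRCm38, and both are assemblies of B6. How a B6 reference affects the values from reads of CAST alleles was not tested.

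**Figure D5:**
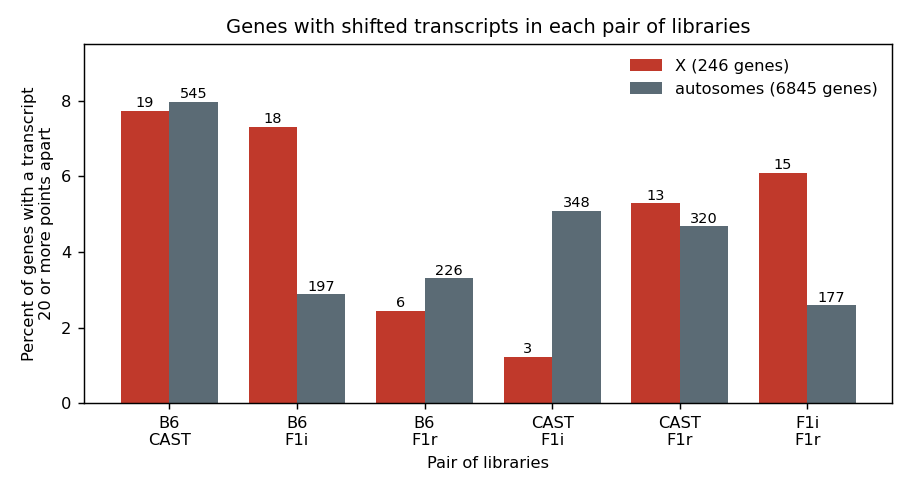
Percent of genes with a transcript at least 20 points apart (vertical) for each of the 6 pairs of libraries, for 246 X-linked and 6845 autosomal genes with at least 5 FPKM in all 4 libraries, with the number of genes above each bar. On the X the bars are lowest for CAST with F1i and for B6 with F1r, and on autosomes the 2 hybrids are both nearer to B6 than to CAST.

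Many autosomal genes were named because their parental difference was among the largest, in either direction, or among the smallest. The 3 arrangements of the parents described here therefore follow from that choice. They do not cover all named genes, such as Bag1 and Map6 above. In the first F1r resembled B6 and F1i CAST, as in Anxa6, Src, Sptan1 and Chchd3. Wdfy1, an endosomal adaptor, had Wdfy1-204 at 18.2% in B6 and 78.3% in CAST, against 71.8% in F1i and 33.9% in F1r. Rlbp1, a binding protein of retinaldehyde, had Rlbp1-202 at 38.2%, 81.1%, 81.2% and 45.2%. Hnrnpll, a regulator of splicing, had Hnrnpll-201 at 15.95%, 49.9%, 49.5% and 20.4%. In these 3 genes the F1i share was close to that of CAST, and the F1r share lay between the parents, nearer to B6.

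In the second arrangement the order was the reverse, as in Psen2, Gfra1 and Slc25a51. Grwd1, a factor of ribosome assembly, had Grwd1-202 at 8.53% in B6 and 47.8% in CAST, against 0.005% in F1i and 41.4% in F1r. Rif1, which controls replication timing, is shifted through an unnamed transcript at 58.5%, 5.82%, 24.9% and 0.07%. Yif1b, a protein of transport from the endoplasmic reticulum, had Yif1b-203 at 72.5%, 36.5%, 71.6% and 50.8%. Rabl2, a small GTPase of cilia, had Rabl2-201 at 84.4%, 39.5%, 87.3% and 66.0%. Rps6kc1 is shifted through a transcript at 44.9%, 5.66%, 33.7% and 10.9%, whose difference was -3.78 points with shares of FPKM times length, and that of Rabl2 was -18.8. In Rif1 only the order of the hybrids was the reverse, since F1i was nearer to CAST than to B6 and F1r past CAST. In the other genes F1i was on the side of B6 and F1r between the parents or near CAST.

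In the third arrangement the parents were nearly alike and at least 1 hybrid stood apart. Zmiz2-205, from a co-regulator of transcription factors, stood at 0.01% in B6 and 0.01% in CAST, against 8.85% in F1i and 42.6% in F1r. Osbpl10-204, from an oxysterol-binding protein gene, stood at 0.01%, 0.03%, 32.6% and 0. Itch, a ubiquitin ligase, had Itch-202 at 5.74%, 5.90%, 6.68% and 29.8%. Celf3, a regulator of splicing, had Celf3-214 at 8.51%, 8.46%, 3.29% and 23.4%. Tasp1, a threonine protease, had Tasp1-201 at 47.3%, 47.9%, 31.3% and 52.8%. Fcrls, a marker of microglia, had Fcrls-202 at 11.7%, 11.1%, 9.17% and 30.9%. Neither hybrid was always the one apart, since it was F1i in Osbpl10, Ing1 and Tasp1, and F1r in Itch, Celf3, Fcrls and Nsmf. With shares of FPKM times length, the transcript with the largest difference was at 3.37 points in Celf3 and -8.98 in Fcrls, both under 20 points. Among shifted autosomal genes whose parents differed by 10 points or more in the transcript that moved most, 38 differed in the direction of the first arrangement and 56 in the reverse direction.

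Over 9 gene lists chosen for brain functions, 6 of 231 measured genes were shifted (2.60%), close to the 2.91% of all genes, so the counts below do not set the lists apart. A difference of 10 points or more was found in 21 of them (9.09%), against 17.4% of all genes. Of 28 imprinted genes measured, in which at least some transcripts come mainly from 1 parental copy, 2 were shifted (Peg10 and Inpp5f). Their median largest difference was 4.39 points for the list against 4.58 over all genes. The parental origin of the transcripts named here was not tested. Peg10, a gene derived from a retrotransposon and expressed from the paternal copy, had Peg10-201 at 82.8% in B6 and 75.1% in CAST, against 50.9% in F1i and 1.80% in F1r. Its exchanging transcripts differ by 5 exonic bases, and the gene was at 5.61 and 5.21 FPKM. Inpp5f, an inositol phosphatase, had Inpp5f-203 at 69.6%, 36.7%, 62.2% and 40.2%, with F1i near B6 and F1r near CAST. With shares of FPKM times length Inpp5f no longer reached 20 points. Another 4 imprinted genes reached 10 points, with the highest at 13.1, so 21.4% of the list did so. Among the most abundant ones, Snrpn-201 made 99.2% in F1i and 99.6% in F1r, Gnas-208 36.9% and 37.0%, and Nnat-202 58.5% and 52.1%.

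Of 46 splicing regulators measured, 1 was shifted (Elavl4), and the median was 4.40 points. The list does not hold Hnrnpll and Celf3, described above, which also regulate splicing and were shifted. Hnrnpk-201 made 51.8% in F1i and 50.2% in F1r, and Ddx5-201 made 73.1% and 67.1%. The 24 genes of synaptic vesicles and postsynaptic scaffolds had 1 shifted member, Erc1, a protein of the presynaptic active zone, and a median of 5.10 points. Erc1-201 made 0.06% in B6 and 44.0% in CAST, against 37.3% in F1i and 9.09% in F1r. Snap25-201, of the fusion machinery, made 90.0% and 91.6% in the hybrids, and Syt1-201, of the calcium sensor, 79.3% and 79.6%.

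None of the 26 genes of synaptic adhesion and receptors was shifted, with a median of 3.74 points and a highest value of 7.43. Gabbr1-203, of the metabotropic GABA receptor, made 58.7% in F1i and 56.6% in F1r, and Gria2-202, of an AMPA receptor, 44.8% and 42.2%. None of 26 ion channel genes was shifted, but 6 (23.1%) reached 10 points, with a median of 4.85 and a highest value of 15.1 points. Of the abundant channels, Scn2a-201 made 58.3% and 57.1%. None of 21 genes of the clathrin coat and endocytosis was shifted (median 2.94, with 1 gene at 10 points or more), with Dnm1-201 at 53.8% and 53.5%. None of 16 myelin genes was shifted (median 1.85, highest 9.58 points), with Mbp-211 at 68.7% and 68.2%. Among 25 cytoskeletal genes 1 was shifted, Sptan1, with a median of 2.77 points, and the 20 genes linked to neurodegeneration had 1, Psen2, and a median of 1.91. At 2.91% of all genes, lists of this size hold about 1 shifted gene or none, and a count of 0 says little. Share differences were smaller at high level over all genes, and the part of level in these list medians was not tested. Uchl1, a ubiquitin hydrolase of neurons, differed by only 0.74 points between the hybrids, but Uchl1-202 made 7.07% in B6 and 18.4% in CAST, against 86.3% in F1i and 86.1% in F1r.

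Overlap with other genes touches part of the shifted set. Of the 214 shifted genes, 140 had under 5% of their 31-base words in the transcripts of other genes and 3 had over 50%, while 49 overlapped another gene of at least 1 FPKM, 9 of them on the same strand. For Ly6a 31.9% of the words were shared, for Usp1 31.6% and for Apoo 43.3%, and for Anxa6, Src and Tceal9 none. Values of genes with many shared words are uncertain, since the treatment of reads with several matches is not given in the sources used here.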

How the data were processed

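Pooled brain RNA of 4 mouse groups was sequenced, with 1 library each. The authors deposited FPKM per transcript, which divides fragments by transcript length and library size. The tools named in the submitters' processing notes are Cufflinks 2.2.1, Cuffdiff, HISAT2, Trimmomatic 0.36 and bcl2fastq 2.20, with mm9 as build. The deposited coordinates are those of GRCm38: of 49820 compared transcripts found in GENCODE M21, 48902 (98.2%) had the same start and end. Neither strand use nor the handling of multiply matching reads is stated (not given in the sources used here). Counts and confidence limits are not part of the tables.

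Shares, differences and structures were computed with Python 3.11.15, numpy 2.4.6 and pandas 2.3.3. The share calculation was tested on simulated data. Motifs were matched exactly on both strands. No replicate exists, so no test was run and depth is only approximate. The members, lists and rules were chosen with earlier results of these data known. Genes named are those with the largest differences (20 of all, 12 of at least 20 FPKM), X-linked genes, list members, autosomal genes by parental difference, and those at the threshold. Nrp2, Bex3, Ctps2, Zfx and Uchl1 were chosen after their values were seen. Alternatives were other FPKM and length minimums, thresholds, an added 0.1 FPKM and shares of FPKM times length. A few items are not reported here.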

Additional observations from a re-analysis of the deposited data

How the results depend on the processing

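No paired analysis was possible because each group is 1 library. The count of 214 shifted genes was 834 with summed FPKM of at least 1, 24 with at least 20, 1282 at 10 points and 49 at 30 points. The 65 genes with another leading transcript became 299, 10, 227 and 28 in the same order. Between 148 and 220 genes were shifted with 0.1 added to each FPKM, other length minimums, shares of FPKM times length, or protein-coding genes only. The percentage by chromosome was recomputed for only some alternatives, and in those the X stayed above the autosomes. The values were 2.91 against 0.787 with at least 20 FPKM, 27.2 against 17.1 at 10 points, and 1.6 against 0.633 at 30 points. The value at 30 points rests on only 4 X-linked genes. Pairs that differ by more than 50 exonic bases, an alternative chosen after seeing the data, gave 6.28 against 2.64. The percentage by chromosome was not computed with at least 1 FPKM, 0.1 added, other length minimums, shares of FPKM times length or protein-coding genes only. For genes with at least 20 FPKM in all 4 libraries, the direction of B6 minus CAST held in 7 of 7 shifted transcripts on the X, from only 3 genes. On autosomes it held in 17 of 33 (51.5%), from 18 genes, where the main value was 40.9%. Transcripts of a gene are tied to one another, so these are not independent cases. The summed protein-coding share, F1r minus F1i, was -0.80 points, and -0.88 with shares of FPKM times length. In none of 76 genes, 5 of them chosen after their values were seen, did the largest difference change direction with 0.1 added, other length minimums or shares of FPKM times length, where the transcript was still measured. With shares of FPKM times length, the transcript with the largest difference moved by over 5 points in 33 of the 76 and fell under 20 points in 22. The cause of these moves was not tested.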
